A study of Homo sapiens and Mus musculus with 69 samples.

Results

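H82 cells were compared to ask what loss of REST does to the transcriptome of a small cell lung cancer (SCLC) line. None had received doxycycline, the inducer of Notch in these cells. The comparison took 6 of the 60 human RNA-seq libraries: 3 of H82_NOTCH1_REST_KO_no_dox ("KO") and 3 of H82_NOTCH1_no_dox ("intact"). All genes of the table were used, and 13903 of 20516 were high enough to test. H82 is a human SCLC line that grows in suspension and carries the neuroendocrine factor NEUROD1. Intact and KO cells both carried a lentiviral, doxycycline-inducible vector for the Notch1 intracellular domain (N1ICD), and neither had received doxycycline. The KO cells had in addition been edited at *REST* with CRISPR-Cas9 and 1 target sequence. The study describes single-cell KO clones, and the sources used here do not say which clone or clones gave the RNA, or whether the intact cells carried Cas9 or a control guide. Loss of REST and a difference between these cell lines of another origin therefore cannot be told apart in this comparison alone. For this reason 2 further groups without doxycycline stand beside it, each with 3 libraries: parental H82 with no vector, and H82_NOTCH1_STING_KO_no_dox ("STING KO"), which carried the same inducible vector and was edited at the gene for STING. Libraries are named below by group and by the serial number in their labels (intact 4, 5 and 6; KO 28, 29 and 30).

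REST is a zinc-finger repressor that binds a long DNA element called RE1 (also NRSE) at neuronal genes and recruits CoREST, SIN3, histone deacetylases and the demethylase KDM1A to keep these genes silent outside neurons. Its classic targets encode synaptic vesicle proteins, secretory granule proteins, ion channels and neurotransmitter receptors. Neuroendocrine SCLC cells express many of these neuronal genes, and Notch signalling is known to raise REST in SCLC.

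All values below are log2(RPKM + 1), where RPKM is the number of reads scaled to transcript length and library size, so differences between groups understate the change of genes near 0. A gene was called when its Benjamini-Hochberg adjusted *P* from limma was under 0.05 and its difference was at least 1 on this log2 scale. "Rose" and "fell" are used of called genes, in KO relative to intact cells. Differences are given as KO minus intact ± SE with 3 libraries in each group. The relative library sizes of the 6 libraries, as far as the values show them, lay between 1.04 and 1.27. Intact 4 stood apart from its group. Its correlation across genes was 0.958 with intact 5 and 0.964 with intact 6, against 0.993 between those 2 libraries, and the KO libraries correlated with each other at 0.987 to 0.996. Results that rest on intact 4 are given with and without it. Of 7 neuroendocrine markers, 6 reached a log2 value of 1 in at least 1 library of each group. The summed RPKM of 7 markers of adherent, non-neuroendocrine SCLC cells was 57.9 to 106 in intact and 32.2 to 49.6 in KO libraries. For 26 markers of other cell types the sum was 4.71 to 53.7 in intact and 3.66 to 15.4 in KO libraries, and 13 of the 26 were at 0 in every KO library. The first sum was lower in every KO library than in any intact library. The ranges of the second overlapped, with *COL1A1* and *COL3A1* high in intact 5 and 6. On the KO side *FOXJ1* was 3.67 in KO 30 and 0 in KO 28 and 29. The part of these markers in the results was not tested.

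The edited gene itself was examined first. *REST* (chr4:57774042-57832974, GRCh37) stood at 4.42, 4.80 and 4.70 in intact and 3.99, 4.15 and 4.20 in KO cells. The groups did not overlap, yet the difference of -0.53 ± 0.22 missed the threshold (limma adjusted *P* = 0.113). An edit that shifts the reading frame need not remove the transcript, and the deposited gene-level values do not show the edit, so the label could not be checked at the sequence level. *REST* was 4.64, 5.33 and 5.09 in parental and 5.35, 5.26 and 5.17 in STING KO cells, and it was lower in KO than in STING KO cells (-1.14 ± 0.22, adjusted *P* = 0.00127). *NOTCH1*, the gene behind the vector, stood at 1.45, 0.88 and 1.15 in intact and 1.28, 1.21 and 1.47 in KO libraries and was 0 or close to 0 in parental cells. Its difference between KO and intact was 0.16 (adjusted *P* = 0.867). *TMEM173*, which encodes the DNA sensor adaptor STING, was at or near 0 in intact and KO cells alike. Of 22 tested genes of REST, its corepressor complexes and its known regulators, 1 rose and none fell, and no subunit of the complexes was called. Over all tested genes 3.39% rose and 2.85% fell. *RCOR1*, the CoREST scaffold, differed by 0.29 (adjusted *P* = 0.396) and *KDM1A* by -0.17 (adjusted *P* = 0.57). *HMG20B*, a CoREST complex subunit, was higher in every KO library but by less than the fold limit (0.95, adjusted *P* = 0.000262). The 1 called gene was *SRRM3*, a neuronal splicing factor, at 3.66, 4.33 and 3.91 in intact and 4.96, 5.09 and 5.08 in KO cells, a difference of 1.07 that came to 0.92, under the fold limit, without intact 4.

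Over all tested genes, 867 were called (6.24% of those tested), of which 471 rose (3.39%) and 396 fell (2.85%). With each library centred on its median, which moves the median difference of all tested genes from -0.07 to -0.18, the split became 352 higher and 580 lower. The share of called genes that rose was 54.3% as reported and 37.8% after that centring. Without intact 4, 377 genes rose and 419 fell, of which 309 and 298 were among the genes called with all libraries. Groups that did not overlap, whatever the size of the difference, were found for 5731 genes (41.2%), 2304 of them higher (16.6%) and 3427 lower (24.6%).

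The clearest group among the genes that rose was that of the neuronal genes that REST is known to repress. Of 65 tested genes on a list of REST targets, 21 rose (32.3%) and 2 fell, beside 3.39% and 2.85% over all tested genes, and the list's median difference was 0.46 beside -0.07 over all tested genes. The counts were 19 higher and 2 lower after quantile normalization, 17 and 2 after median centring, and 17 and 3 without intact 4. Against STING KO cells 41 members were higher and none was lower (median 1.85), beside 4.44% higher and 3.75% lower over all tested genes (8.19% called in either direction). Against parental cells 26 were higher and 6 lower, beside 9.07% and 7.96% (17% in either direction). STING KO cells were themselves below intact cells in this list, with none of the 65 higher and 37 lower (median -1.36), beside 6.64% and 7.72% over all tested genes (14.4% in either direction). The list was compiled with earlier results of these data known, and its counts are a description.

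Genes of the release machinery at the synapse were among those that rose, and *CPLX1* had the largest difference on the list. *CPLX1* (chr4:778745-819917, minus strand), which encodes complexin 1, a clamp on vesicle fusion, stood at 6.06, 6.36 and 6.55 in the intact libraries and 9.48, 9.49 and 9.27 in the KO libraries. It was 5.81, 5.67 and 5.86 in parental and 4.69, 4.08 and 4.46 in STING KO cells. The KO libraries thus stood above every library of the other 3 groups, with a difference from intact of 3.09 ± 0.23 or 8.5-fold (adjusted *P* = 2.51e-07). *CPLX2*, its close relative, rose from 4.25, 5.01 and 5.22 to 6.01, 5.85 and 6.21 (1.20, adjusted *P* = 0.00558), and this came to 0.91 without intact 4. Parental cells expressed *CPLX2* almost as highly as KO cells, at 5.82, 5.46 and 5.81, and in STING KO cells it was 0.73, 0.32 and 1.15. *UNC13A*, a vesicle priming factor, was 4.46, 5.23 and 5.24 in intact and 6.64, 6.71 and 6.70 in KO libraries. All 3 KO libraries were above all parental and intact libraries, and STING KO cells held 1.33, 1.25 and 1.23. The difference from intact was 1.71 ± 0.26 (adjusted *P* = 0.000288). *SNAP25*, a membrane SNARE of the release complex, rose from 2.92, 2.40 and 2.31 to 3.86, 3.98 and 3.98 (1.40, adjusted *P* = 0.000847), and *SYN1*, which ties vesicles to the cytoskeleton, rose from 2.17, 2.63 and 2.34 to 3.86, 3.87 and 3.65 (1.41, adjusted *P* = 6.95e-06). Neither gene's groups overlapped. Parental cells had *SNAP25* at 3.20, 3.97 and 4.00, a level that overlapped that of the KO cells, and against them *SNAP25* was not called (0.22, adjusted *P* = 0.511). On the wider list of synaptic genes, 9 of 42 tested members rose and 2 fell, beside 3.39% and 2.85% over all tested genes. The counts were 7 and 0 after quantile normalization, 7 and 3 after median centring, and 6 and 3 without intact 4. The plot of these genes by library shows the KO points above the intact points in every panel.

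**Figure D1:**
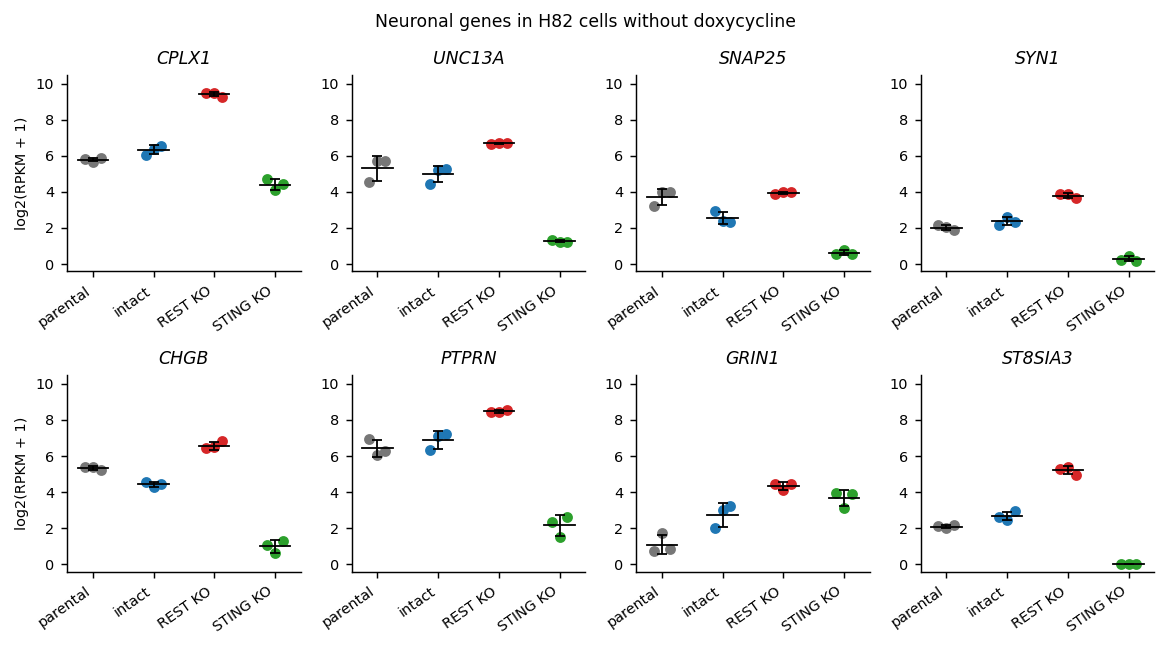
Level of 8 neuronal genes, as log2(RPKM + 1), in each library of the 4 H82 groups without doxycycline. Points are libraries and lines are the mean ± SD of 3. The 3 KO libraries stand above the 3 intact libraries in every panel, and for *GRIN1* the STING KO libraries stand close to the KO libraries while for the other 7 genes they are lower.

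Secretory granule genes moved less as a group, with *CHGB* and *PTPRN* standing out. Of 27 tested, 3 were higher and 2 lower (11.1% and 7.41%), beside 3.39% and 2.85% over all tested genes. *CHGB*, which encodes the granule matrix protein chromogranin B, stood at 4.54, 4.30 and 4.45 in intact and 6.42, 6.48 and 6.83 in KO cells, with tight replicates in both groups. The difference was 2.14 ± 0.23 (adjusted *P* = 1.21e-05). Parental cells were in between at 5.40, 5.41 and 5.22, and STING KO cells were lowest at 1.06, 0.62 and 1.31. *PTPRN*, a granule membrane protein of neuroendocrine cells, rose from 6.31, 7.12 and 7.20 to 8.45, 8.42 and 8.56 (1.60, adjusted *P* = 0.00962). The third was *UCN*, the peptide urocortin, low in intact cells at 0.66, 0.50 and 0.62 and at 2.02, 2.07 and 1.83 in KO cells. STING KO cells held *UCN* at 2.98, 2.42 and 2.22, so that gain was shared by a line with a different edited gene.

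Among ion channel genes, 2 of 30 tested rose and 1 fell (6.67% and 3.33%), beside 3.39% and 2.85% over all tested genes. Among neurotransmitter receptor genes 6 of 31 rose and 2 fell (19.4% and 6.45%). *HCN3*, a pacemaker channel subunit, was 2.65, 4.71 and 4.72 in intact and 6.61, 6.52 and 6.07 in KO libraries (2.38 ± 0.39, adjusted *P* = 0.000684). Every KO library was above every library of the other groups, and intact 4 was the lowest of the intact libraries. *CACNA1B*, the N-type calcium channel that triggers release, rose from 1.15, 1.62 and 1.62 to 2.52, 2.55 and 2.43 (1.04, adjusted *P* = 0.00211), close to the fold limit and at 0.88 without intact 4. *GRIN1*, the obligatory NMDA receptor subunit, rose from 2.00, 3.01 and 3.24 to 4.44, 4.10 and 4.46 (1.59, adjusted *P* = 0.00288). *GRIN2D*, another NMDA receptor subunit, rose by 1.28 (adjusted *P* = 0.00957), *GRM4*, a metabotropic glutamate receptor, by 1.70 (adjusted *P* = 0.00869) and *CHRM4*, a muscarinic receptor, by 1.33 (adjusted *P* = 0.000704). The 3 glutamate receptor genes were also high in STING KO cells: *GRIN2D* stood at 5.50, 5.64 and 5.18 there and at 5.08, 4.89 and 5.16 in KO cells. *CHRM4* was different, at 0.56, 0.85 and 0.51 in STING KO and 2.66, 2.62 and 2.59 in KO cells. The receptor genes that fell were *GABRA5*, a GABA-A receptor subunit, from 5.00, 6.55 and 6.70 to 2.49, 2.79 and 1.69 (-3.76, adjusted *P* = 4.11e-06), and *CHRNA3*, a nicotinic receptor subunit, from 4.68, 3.27 and 2.63 to 0.85, 0.88 and 1.59 (-2.42, adjusted *P* = 0.000875). Both of these were far below intact in the KO libraries, and *GABRA5* was listed at 0 in STING KO cells.

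The 2 members of the REST target list that fell encode neurofilament subunits, which build the axonal cytoskeleton and lie next to each other on the same chromosome. *NEFL* was 6.07, 6.26 and 6.26 in intact and 3.98, 3.98 and 4.33 in KO libraries (-2.10 ± 0.21, adjusted *P* = 7.12e-06), and *NEFM* was 6.71, 6.50 and 6.42 and 5.00, 5.00 and 5.36 (-1.42, adjusted *P* = 0.00211). Neither gene's groups overlapped. Another called member was *POU4F2*, a neuronal POU factor, which rose from 1.45, 3.19 and 3.13 to 4.18, 4.13 and 3.46. Its difference was 1.33 (adjusted *P* = 0.0123), and it was not called without intact 4 (0.76), KO 28 (1.20) or KO 29 (1.23).

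The RE1 element was searched for by its letters on either strand: CAG, any base, ACC, any 3 bases and GACAG. This pattern holds 11 fixed letters and is stricter than what REST binds. Within 1000 bases on either side of the start site (GENCODE annotation lifted to GRCh37), the pattern was found at 88 of 12992 tested genes with a position (0.677%). It was found at 20 of 439 genes that rose (4.56%, exact binomial 95% interval 2.8 to 6.95), at 3 of 362 that fell (0.829%, 0.171 to 2.4) and at 65 of 12191 that were not called (0.533%, 0.412 to 0.679). The 88 genes had a median difference of 0.30, beside -0.07 over all tested genes, and 56 of them were above 0. In the narrower RefSeq promoter windows of 250 bases before to 50 after the start (GRCh38.p14) it was found at 2 of 318 genes that rose, 0 of 259 that fell and 6 of 10342 tested genes (0.058%). A match is a description of letters and was not tested as a binding site. The sites below are shown as examples of the pattern at genes that rose. *CPLX1*, *HCN3* and *UNC13A* had no match in this window. Each is written 5′ to 3′ on the strand of the match, with the fixed letters in capitals, in GRCh37.
*CHGB*, chr20:5892350-5892370, plus strand, intron: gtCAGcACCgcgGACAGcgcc
*GRIN1*, chr9:140033712-140033732, plus strand, untranslated exon: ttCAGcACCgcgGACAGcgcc
*CHRNB2*, chr1:154540430-154540450, plus strand, untranslated exon: ttCAGcACCacgGACAGcgcc
*SNAP25*, chr20:10200320-10200340, plus strand, intron: ttCAGcACCgggGACAGcggt
*SYN1*, chrX:47479469-47479489, minus strand, 223 bases before the start: ttCAGcACCgcgGACAGtgcc
*MMP24*, chr20:33814997-33815017, plus strand, intron: ttCAGcACCgcgGACAGgggc
*KCNK12*, chr2:47798605-47798625, plus strand, 491 bases before the start: gtCAGcACCgcgGACAGcgca
*FBLL1*, chr5:167955719-167955739, minus strand, 581 bases before the start: gtCAGcACCaggGACAGcgac
*NPAS4*, chr11:66189179-66189199, minus strand, intron, 1 of 4 matches in this gene: ttCAGcACCgcgGACAGtagc

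Other genes of this set follow. They were picked among genes that rose, so their direction is not a result of the pattern. *CHRNB2*, a nicotinic receptor subunit, was 7.62 ± 0.61 (SD, n = 3) in intact and 8.68 ± 0.05 in KO cells (1.06, adjusted *P* = 0.0207). Against parental cells *CHRNB2* was not called (0.16), and against STING KO cells its difference was 5.68. *SYT4*, a vesicle synaptotagmin gene that also holds the pattern, was 6.03 ± 0.58 and 7.33 ± 0.46 (1.30, adjusted *P* = 0.0138). *MMP24*, a membrane metalloproteinase of neurons, was 4.36 ± 0.02 and 5.53 ± 0.23 (1.17, adjusted *P* = 0.00209). The difference was 1.16 for *KCNK12*, a potassium channel gene, and 1.83 for *FBLL1*, a fibrillarin-like gene. *NPAS4*, an activity-dependent neuronal factor, was uneven: 0.94, 1.52 and 0.41 in intact and 2.56, 1.33 and 5.37 in KO libraries. Its groups overlapped, its adjusted *P* was 0.0437, and it was not called without intact 4 (2.12), intact 5 (2.41), intact 6 (1.86), KO 28 (2.39) or KO 30 (0.99). *SYT4* was not called without intact 4 (0.97) or KO 30 (1.03), *CHRNB2* without intact 5 (0.88), intact 6 (0.90), KO 28 (1.09), KO 29 (1.04) or KO 30 (1.06), and *KCNK12* without intact 6 (0.92). *NEFM* is 1 of the 3 genes with the pattern that fell.

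**Figure D2:**
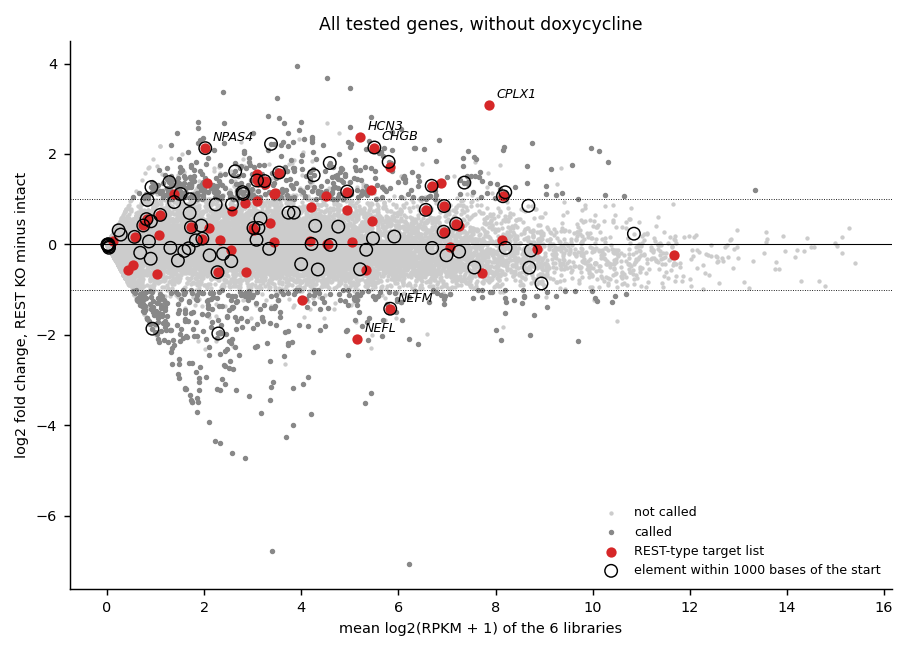
Mean level over the 6 libraries (horizontal axis, log2(RPKM + 1)) against the KO minus intact difference (vertical axis, log2) for 13903 tested genes. Members of the REST target list are red and genes with the RE1 pattern within 1000 bases of the start are circled. Of the 65 red points 51 lie above 0, and *NEFL* and *NEFM* lie below -1.

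Neuroendocrine factors changed in few cases: of 25 tested, 1 rose (*POU4F2*) and 1 fell (4% each), beside 3.39% and 2.85% over all tested genes. *NEUROD1*, which defines this SCLC subtype, stood at 13.03, 14.41 and 14.00 in intact and 14.19, 14.22 and 13.62 in KO libraries (0.20, adjusted *P* = 0.914). The gene that fell was *INSM1*, a zinc-finger factor used as a neuroendocrine marker, from 3.30, 3.54 and 3.86 to 1.31, 1.18 and 1.82. The groups did not overlap, the difference was -2.13 ± 0.36 (adjusted *P* = 0.00077), and parental cells were at 2.46, 3.58 and 3.67. *NEUROD4* was higher by 0.98 (adjusted *P* = 0.0322), just under the fold limit. Of 33 tested Notch pathway genes 3 rose and 3 fell (9.09% each). The ligand gene *JAG2* rose from 3.60, 3.12 and 3.37 to 4.48, 4.42 and 4.79 (1.20, adjusted *P* = 0.00398). The ligand-like inhibitor *DLK1* was 4.06, 2.70 and 3.70 in intact cells and was listed at 0 in every KO library (adjusted *P* = 2.62e-05). In STING KO cells *DLK1* was 0.58, 0 and 0, so the 2 edited lines were alike in this gene. *DTX1*, a Notch target and regulator, fell from 1.71, 1.93 and 2.01 to 0.59, 0.49 and 0.43 (-1.38, adjusted *P* = 0.00058). The repressor *HES1* was low throughout, at 1.42, 1.31 and 1.14 in intact and 0.14, 0.21 and 0.10 in KO cells (-1.14, adjusted *P* = 0.0324), and it was not called without intact 4 (-1.07), intact 5 (-1.13), KO 28 (-1.13), KO 29 (-1.17) or KO 30 (-1.11). *HES7* rose by 1.07 and the glycosyltransferase gene *RFNG* by 1.19, and both came under the fold limit without intact 4 (0.93 and 0.94). *HES6* differed by 0.50 (adjusted *P* = 0.287), *HEY1* by -0.80 (adjusted *P* = 0.236) and *NOTCH2* by 0.03 (adjusted *P* = 0.977), none of them called.

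Among mesenchymal and adhesion genes the direction was mostly the other way, with 13 of 71 tested members lower and 2 higher (18.3% and 2.82%, beside 2.85% and 3.39% over all tested genes; median -0.41). Without intact 4 the counts were 14 lower and 1 higher. Against parental cells 11 members were lower and 7 higher (median 0), and intact cells were themselves above parental cells in 13 members and below in 4 (median 0.39). Against STING KO cells 13 were lower and 1 higher. *COL3A1*, *COL1A1* and *AXL* were high in intact 5 and 6 and not in intact 4. *COL3A1*, a fibrillar collagen gene, was 0, 5.06 and 5.26 in intact cells and listed at 0 in every KO and parental library (adjusted *P* = 0.0141). *COL1A1* was 0.34, 3.32 and 3.57 in intact and 0.32, 0.36 and 0.23 in KO libraries (adjusted *P* = 0.0188), and the receptor kinase gene *AXL* was 0.12, 2.92 and 3.43 in intact and 0 or close to 0 in KO libraries (adjusted *P* = 0.0174). For these 3 genes intact 4 lay close to the KO and parental libraries. STING KO cells were in between, with *COL3A1* at 2.44, 0.66 and 0.88, *COL1A1* at 2.98, 1.31 and 1.92 and *AXL* at 1.91, 1.13 and 1.03. With intact 4 left out, the adjusted *P* was 4.57e-07 for *COL3A1*, 1.53e-05 for *COL1A1* and 3.21e-05 for *AXL*, and with intact 5 or intact 6 left out none of the 3 was called. *AXL* was not called without intact 5 (-1.78), intact 6 (-1.52), KO 28 (-2.16), KO 29 (-2.16) or KO 30 (-2.16), *COL1A1* without intact 5 (-1.65), intact 6 (-1.53), KO 28 (-2.12), KO 29 (-2.14) or KO 30 (-2.08), and *COL3A1* without intact 5 (-2.63) or intact 6 (-2.53). Some other members fell with all intact libraries above the KO libraries. *COL5A1* was 3.46, 4.17 and 4.27 in intact and 0.92, 0.76 and 0.96 in KO libraries (-3.09 ± 0.48, adjusted *P* = 0.000406). *ITGA5*, the fibronectin receptor subunit, was 5.09, 6.77 and 6.72 and 3.74, 3.62 and 3.88 (-2.45, adjusted *P* = 0.00177). *S100A10*, an annexin A2 partner, was 4.01, 5.22 and 5.63 and 1.57, 0.91 and 2.93 (-3.15, adjusted *P* = 0.00153). Members that rose were *TPM2*, a tropomyosin gene, from 0.90, 1.30 and 1.28 to 3.32, 3.16 and 3.23 (2.08, adjusted *P* = 2.83e-07), and *CNN2*, a calponin gene, by 1.18. *CNN2* was not called without intact 4 (0.68), KO 28 (1.11) or KO 29 (1.14), whereas *TPM2* was higher in every KO library and was as high in STING KO cells (3.58, 3.47 and 3.15). Of 15 tested epithelial genes 2 fell and none rose, the keratin partners *KRT8* (0.99, 2.65 and 3.02 in intact, 0.15, 0.08 and 0.08 in KO) and *KRT18* (2.47, 3.56 and 3.68 in intact, 1.65, 1.45 and 1.27 in KO). *KRT18* was not called without intact 5 (-1.62), intact 6 (-1.56) or KO 30 (-1.69). *GJA1* (chr6:121756741-121770873), the gap junction protein connexin 43, fell from 6.71, 7.41 and 7.07 to 3.31, 3.53 and 3.80. It was 7.44, 7.28 and 7.39 in parental and 7.44, 7.23 and 7.22 in STING KO cells, so the KO libraries stood alone below the other 9, and the difference from intact was -3.52 ± 0.17 (adjusted *P* = 6.33e-10).

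**Figure D3:**
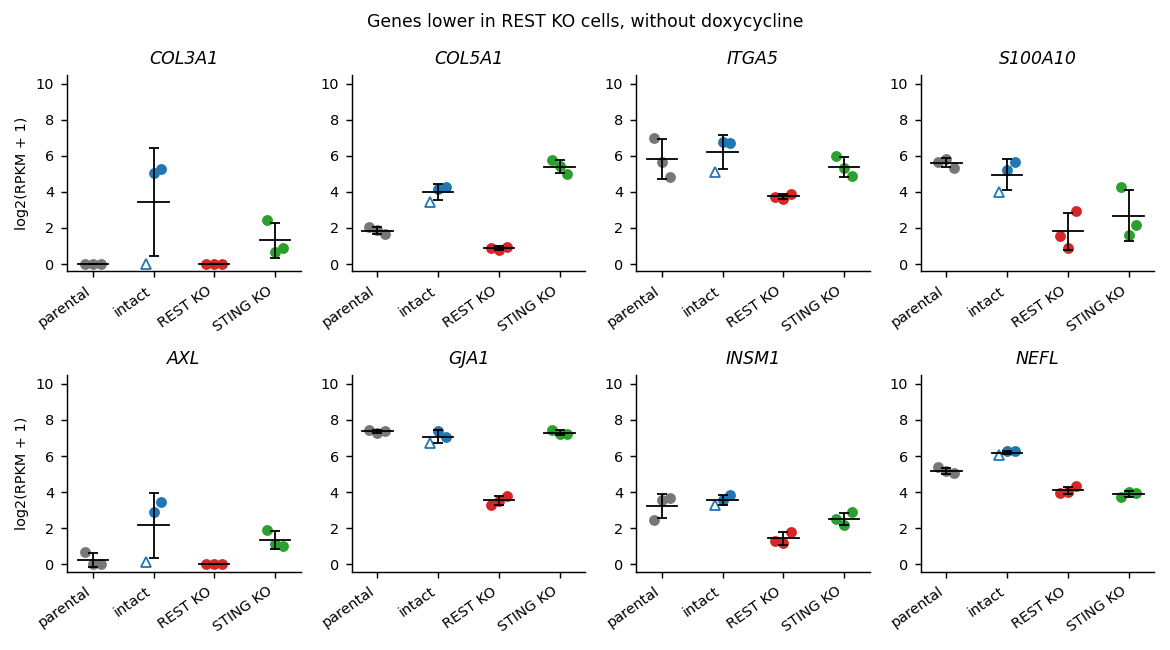
Level of 8 genes that fell, as log2(RPKM + 1), in each library of the 4 H82 groups without doxycycline. Points are libraries, lines are the mean ± SD of 3, and the open triangle is intact 4. For *COL3A1* and *AXL* intact 4 lies with the KO libraries near 0, and for *GJA1* the KO libraries lie below all other groups.

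Among innate immune genes the called members all fell when all libraries were used. Of 33 tested interferon-stimulated genes 6 fell and none rose, beside 2.85% and 3.39% over all tested genes. *USP18*, a brake on interferon signalling, fell from 5.93, 6.19 and 6.33 to 3.93, 4.10 and 5.03 (-1.80, adjusted *P* = 0.0041), *HERC5*, the ISG15 ligase, from 3.77, 3.55 and 3.61 to 1.01, 1.20 and 2.18 (-2.18, adjusted *P* = 0.000474) and *IFITM2*, an antiviral membrane protein, from 1.63, 2.88 and 2.95 to 0, 0 and 0.80 (-2.22, adjusted *P* = 0.00229). Parental cells had *USP18* at only 2.25, 0.60 and 0.79, so intact cells were the highest of these groups in that gene. *LGALS3BP*, a secreted glycoprotein, fell from 2.34, 4.14 and 5.01 to 0.93, 1.15 and 1.66 (-2.59, adjusted *P* = 0.0164). It was not called without intact 5 (-2.43), intact 6 (-2.00), KO 28 (-2.43) or KO 29 (-2.54). Of 24 tested genes of the antigen presentation machinery (APM) 1 fell and none rose: *PSMB10*, an immunoproteasome subunit, by 1.04 on the log2 scale (adjusted *P* = 0.00687), not called without intact 4 (-0.85) or KO 30 (-0.90). None of 12 tested nucleic acid sensing genes was called by limma in either direction, and 6 had an unadjusted *P* under 0.05. Without intact 4, 1 of the 12 was called higher and none lower.

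Of 21 tested cholesterol synthesis genes 5 rose and none fell (median 0.65), beside 3.39% and 2.85% over all tested genes, and 2 were called without intact 4. *HMGCS1*, at the entry to the pathway, stood at 5.48, 5.57 and 5.32 in intact and 7.28, 7.32 and 5.90 in KO libraries (1.37, adjusted *P* = 0.00626), and KO 30 was nearest to the intact libraries. *MVD*, mevalonate decarboxylase, rose from 3.02, 3.02 and 3.06 to 4.92, 4.81 and 4.23 (1.62, adjusted *P* = 0.000708). *INSIG1*, the sterol sensor partner, rose by 1.68 and *STARD4*, a sterol carrier, by 1.19. *INSIG1* was not called without intact 4 (1.11), KO 28 (1.53) or KO 29 (1.52), nor *STARD4* without intact 4 (0.88), KO 28 (1.18), KO 29 (1.17) or KO 30 (1.22). Of 52 tested axon guidance and cell adhesion genes 10 fell and none rose, beside 2.85% and 3.39% over all tested genes. Against parental cells 15 were lower and 3 higher, and against STING KO cells 8 were lower and 8 higher. *DCC*, the netrin receptor, fell from 6.08, 7.47 and 7.66 to 3.03, 3.53 and 4.78 (-3.29, adjusted *P* = 0.000796), and *UNC5B*, another netrin receptor, from 6.03, 5.18 and 5.59 to 2.44, 2.32 and 3.25 (-2.93, adjusted *P* = 0.00124). The guidance ligand gene *SLIT3* fell by 2.09 on the log2 scale (adjusted *P* = 0.0131) and the protocadherin gene *PCDH9* by 2.08 (adjusted *P* = 0.0149). *SLIT3* was not called without intact 6 (-1.78) or KO 28 (-2.00), nor *PCDH9* without intact 4 (-1.64), KO 28 (-1.87) or KO 29 (-1.81). *UNC5B* was far higher in STING KO cells, at 7.23, 7.19 and 7.93.

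Of 20 tested cancer-testis genes, which are normally silent outside the germ line, 5 fell and none rose (3 fell without intact 4). The shares over all tested genes were 2.85% and 3.39%. *PAGE5* was 6.45, 6.83 and 7.11 in intact cells and listed at 0 in every KO library (adjusted *P* = 1.49e-06), and *MAGEA1* fell from 5.65, 5.20 and 5.39 to 2.61, 2.48 and 1.64 (-3.17, adjusted *P* = 6.06e-05). Both were also low in STING KO cells, *PAGE5* at 2.56, 3.44 and 2.54 and *MAGEA1* at 2.64, 0.91 and 2.01. *GAGE12H* was 3.91, 4.45 and 4.81 in intact and 0 or close to 0 in KO libraries. *GAGE12I* was 8.08, 10.62 and 10.53 in intact and 8.03, 0 and 0 in KO libraries, and was not called without KO 29 (-5.72) or KO 30 (-5.72). The GAGE genes are near-identical copies, and how reads are shared among them makes both values uncertain. Among 44 tested signalling ligands 2 rose and 2 fell (4.55% each), near the shares over all tested genes. The lymphangiogenic factor gene *VEGFC* rose from 2.47, 3.23 and 3.47 to 5.40, 5.54 and 5.26 (2.34, adjusted *P* = 0.00067). *WNT6* was 0, 0 and 2.08 in intact and 4.64, 2.67 and 4.89 in KO libraries (adjusted *P* = 0.021), and was not called without intact 4 (3.03), intact 5 (3.03), KO 28 (3.09) or KO 30 (2.96). *WNT5A*, a non-canonical Wnt ligand, fell from 3.93, 3.68 and 4.24 to 1.18, 1.55 and 1.75 (-2.46, adjusted *P* = 0.000178), and the neurotrophin gene *NTF3* from 3.80, 3.37 and 3.69 to 1.38, 1.18 and 1.19 (-2.37, adjusted *P* = 1.73e-06). The 2 ligands that rose were at like levels in STING KO cells (*VEGFC* at 5.77, 5.82 and 4.59), and the 2 that fell were higher there than in KO cells (*WNT5A* at 5.40, 4.93 and 4.77).

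**Figure D4:**
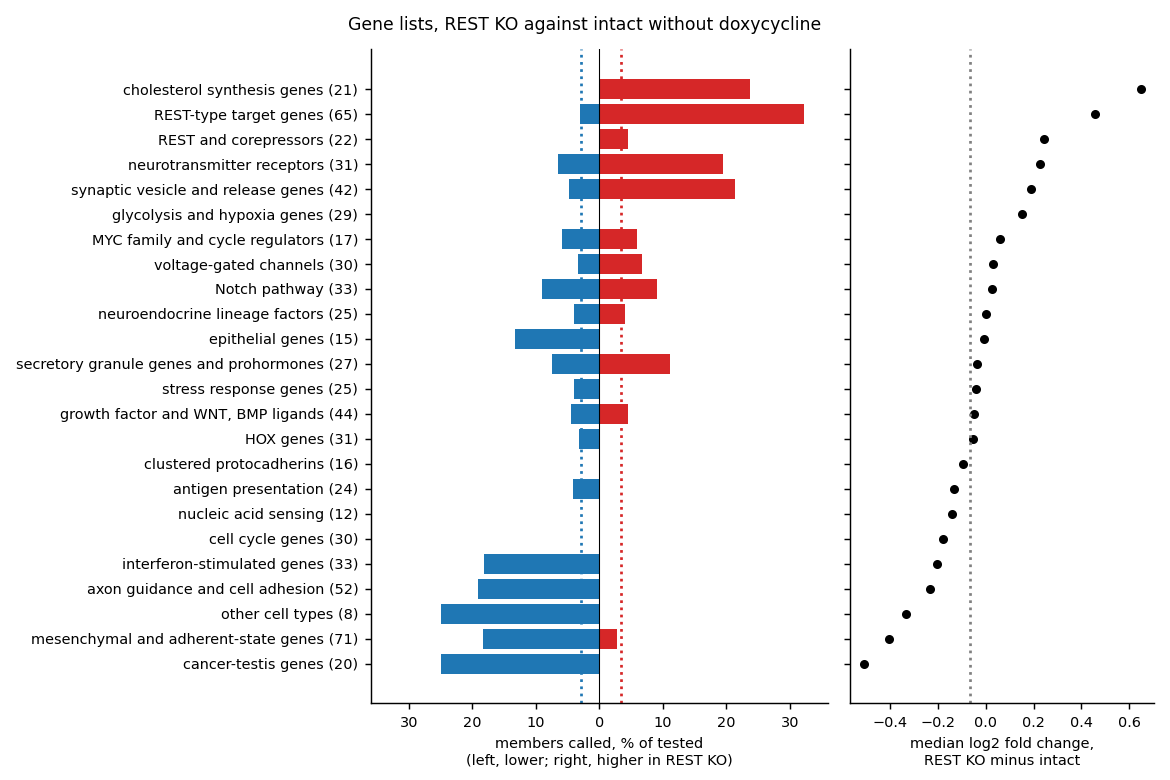
Percent of tested members called higher (right) and lower (left) in KO against intact cells for each gene list, with dotted lines at 3.39% and 2.85% for all tested genes, and beside it the median difference of each list. The REST target list has 32.3% of members higher. The cancer-testis and other cell type lists have 25% lower, the axon guidance list 19.2%, the mesenchymal list 18.3% and the interferon list 18.2%.

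Apart from *CPLX1*, the genes that rose most included *AMH*, the anti-Müllerian hormone gene, at 4.06, 0.56 and 1.17 in intact and 5.98, 5.69 and 5.99 in KO libraries (3.95, adjusted *P* = 0.000808). Intact 4 was the highest of the intact libraries in *AMH*, and STING KO cells were at 6.14, 5.19 and 5.50. *SMYD1*, a muscle methyltransferase gene, rose from 1.98, 2.35 and 1.33 to 4.77, 4.63 and 4.77 (2.84, adjusted *P* = 1.88e-05), and *MYOD1*, the muscle master factor, from 3.77, 4.29 and 4.03 to 6.95, 6.86 and 6.74 (2.82, adjusted *P* = 0.0214). *MYOD1* was not called without intact 4 (2.69), KO 28 (2.77), KO 29 (2.82) or KO 30 (2.88). STING KO cells held *SMYD1* at 4.39, 4.85 and 5.04 and *MYOD1* at 7.21, 7.57 and 6.99, as high as in REST KO cells. The same held for *FBXL8*, an F-box gene (3.31, 3.18 and 3.19 in KO, 3.89, 3.72 and 3.06 in STING KO) and for the antisense RNA *SERTAD4-AS1* (6.85, 6.85 and 6.47 and 7.21, 7.12 and 5.88) (3.45 against intact, not called without KO 28 (3.39) or KO 29 (3.39)). The pseudogene *OR2A20P* was 1.07, 2.58 and 1.98 in intact, 5.33, 5.24 and 4.76 in KO and 4.46, 4.94 and 3.75 in STING KO cells. *WIPF3*, an actin regulator gene, differed from these. It was 1.22, 3.49 and 3.35 in intact, 6.59, 6.65 and 5.87 in KO and 2.12, 2.13 and 1.19 in STING KO cells, but parental cells without the vector were at 6.07, 6.02 and 5.89, the level of the KO cells. Of the genes that fell most, *DAPK1*, a death-associated kinase gene, was 5.25, 4.96 and 5.38 in intact and 0.40, 0.25 and 0.74 in KO libraries (-4.73 ± 0.22, adjusted *P* = 3.02e-10). Parental cells had *DAPK1* at 0, 0.07 and 0.22, so intact cells were the exception. *ADAMTS2*, a procollagen protease gene, was likewise at 0 in the parental libraries, at 3.45, 5.27 and 5.91 in intact and at 0, 0 and 0.77 in KO libraries. *LPL*, lipoprotein lipase, was 3.06, 5.47 and 5.00 in intact and 0.13, 0.18 and 0.06 in KO cells (-4.39, adjusted *P* = 1.60e-06). *CTHRC1*, a secreted collagen-related protein, was 3.60, 4.16 and 4.46 and 0.41, 0 and 0 (-3.94, adjusted *P* = 9.48e-08). Both were as low in STING KO cells and highest in parental cells (*LPL* at 5.92, 6.24 and 5.54). *ABHD17C*, a depalmitoylase gene, fell from 4.89, 4.96 and 5.29 to 1.05, 1.24 and 1.62 (-3.74, adjusted *P* = 1.37e-06).

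Which of these genes differed in KO cells from all 3 other groups was then asked, and the 3 comparisons share the KO libraries. Of the 471 genes that rose, 358 were also higher against parental cells, 96 against STING KO cells and 76 (16.1%) against both. Of the 396 that fell, 228 were also lower against parental cells, 108 against STING KO cells and 63 (15.9%) against both. Over all tested genes 9.07% were higher and 7.96% lower against parental cells, and 4.44% and 3.75% against STING KO cells. Because the KO libraries are shared, these overlaps are not independent. Ranked by the smallest of the 3 differences, *CPLX1* led, with 3.63 against parental, 3.09 against intact and 5.00 against STING KO cells. *ST8SIA3*, a brain sialyltransferase gene, was 2.13, 1.99 and 2.17 in parental, 2.61, 2.47 and 2.94 in intact and 5.31, 5.38 and 4.96 in KO libraries and listed at 0 in every STING KO library (2.54 ± 0.15 against intact, adjusted *P* = 5.26e-09). *PHF21B*, a paralogue of a CoREST subunit, was 1.58, 2.72 and 3.14 in intact and 4.73, 4.72 and 4.60 in KO cells (2.20, adjusted *P* = 4.32e-05). *SPTBN4*, the spectrin of axon initial segments, was 2.38, 3.61 and 3.66 and 5.35, 5.22 and 5.18 (2.03, adjusted *P* = 0.000153). *FAM57B*, a ceramide synthesis gene, was 5.93, 8.52 and 8.41 and 9.85, 9.79 and 9.94 (2.24, adjusted *P* = 0.00843). These 4 genes did not overlap between KO and intact cells. *MIR7-3HG*, the host transcript of a neuroendocrine microRNA, rose by 2.22 (adjusted *P* = 0.00847) and *PDE4C*, a phosphodiesterase gene, by 2.34 (adjusted *P* = 0.0123), the latter not called without intact 4 (1.61) or KO 30 (2.00). *HBA1*, an alpha-globin gene with a near-identical neighbour that makes its value uncertain, was 1.95, 2.53 and 2.52 in intact and 4.77, 4.83 and 4.07 in KO libraries. On the lower side stood *TES*, a focal adhesion protein gene, at 10.43, 9.25 and 9.06 in parental, 6.06, 5.56 and 5.83 in intact and 2.39, 0.97 and 2.13 in KO libraries, and *GJA1*. *TUSC1* was 5.63, 4.09 and 4.19 in intact and 1.79, 1.84 and 2.54 in KO libraries (-2.58, adjusted *P* = 1.95e-05), and *NSG1*, an endosomal protein of neurons, 3.15, 3.99 and 4.20 and 0.58, 0.50 and 2.19 (-2.69, adjusted *P* = 0.00263). *GUCA1A*, a guanylate cyclase activator gene, fell by 2.53 (adjusted *P* = 0.0126), and was not called without intact 4 (-1.66).

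The same 2 lines were also sequenced after doxycycline had switched on N1ICD, in separate libraries (3 per line). Per the study's methods, overexpressing cells were taken as adherent cells after a long culture with doxycycline. Between the sets with and without doxycycline, N1ICD, culture time and the choice of adherent cells therefore cannot be told apart. There 2453 genes were called between KO and intact cells (17.6%), 1312 higher (9.44%) and 1141 lower (8.21%). Of the 471 genes that rose without doxycycline, 195 (41.4%; 14.9% of the 1312) were also higher with it and 8 were lower. Of the 396 that fell, 93 (23.5%; 8.15% of the 1141) were also lower and 41 were higher. The 2 sets of libraries come from the same pair of lines, but *NOTCH1*, which covers the induced N1ICD, was not alike in them: it was 4.75, 4.26 and 5.56 in intact and 8.75, 9.15 and 10.74 in KO cells with doxycycline, a difference of 4.69 (adjusted *P* = 2.06e-07) beside 0.16 without it. With doxycycline, loss of REST and the higher *NOTCH1* level cannot be told apart. On the REST target list, 48 of 65 members were higher and 1 lower with doxycycline (median 1.93). The difference between KO and intact cells was itself larger in the higher direction with doxycycline for 34 of the 65 and in the lower direction for 1, by an interaction term in the limma fit (7.46% and 5.46% of all tested genes, 12.9% in all). *CPLX1* was 0.70, 0.49 and 0 in intact and 8.41, 8.43 and 8.53 in KO cells with doxycycline, a difference of 8.06 beside 3.09 without it. *CHGB* was 0.81, 0.56 and 0.85 and 5.63, 5.72 and 4.71 (4.61 beside 2.14). The difference in *PTPRN* was 6.06 beside 1.60, and that in *UNC13A* 5.23 beside 1.71. The KO libraries held *CPLX1*, *CHGB* and *PTPRN* at high levels in both sets, and *PTPRN* was 3.21, 2.49 and 2.22 in intact and 8.87, 8.88 and 8.35 in KO cells with doxycycline. *NEFL* and *NEFM* changed sides: *NEFL* was 2.69, 2.47 and 2.44 in intact and 3.68, 3.66 and 3.37 in KO cells with doxycycline (1.04 beside -2.10). *GJA1* was lower in KO cells in both sets (-4.33 beside -3.52), as was *CTHRC1* (-5.26 beside -3.94). *COL5A1*, *ADAMTS2* and *DTX1* were lower without and higher with doxycycline (1.66, 3.17 and 3.01 with it).

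**Figure D5:**
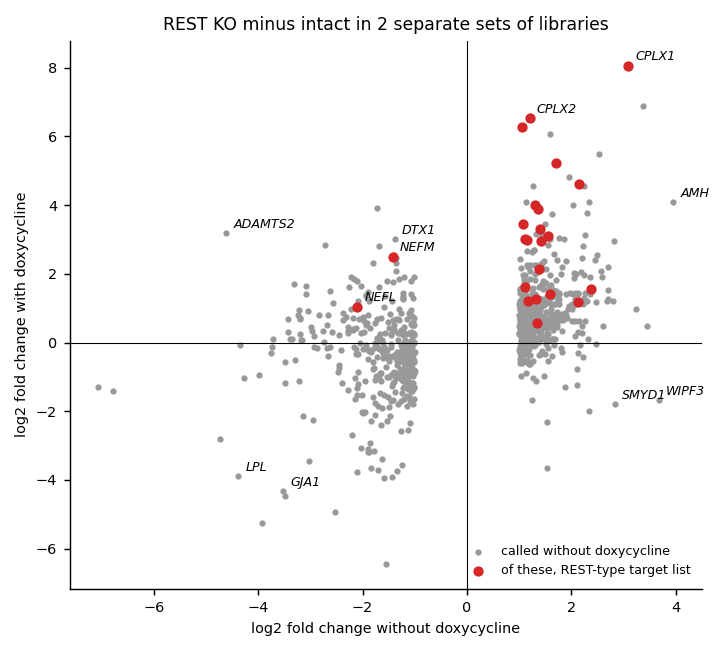
KO minus intact difference (log2) without doxycycline (horizontal axis) against that with doxycycline (vertical axis) for the 867 genes called without it, with REST target genes in red. The 2 axes come from separate libraries of the same lines. *CPLX1* lies at 3.09 and 8.06, and *ADAMTS2* at -4.62 and 3.17.

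The converse experiment was made in H524, another NEUROD1-type SCLC line, in which *REST* was induced with doxycycline (3 libraries with and 3 without). *REST* rose there by 4.01 on the log2 scale, but unevenly. It was 5.05, 5.03 and 4.90 without induction and 6.87, 10.72 and 9.43 with it (libraries 37, 38 and 39). The study's statement on long culture and adherent cells covers this experiment too. Of 13648 tested genes 255 were called (1.87%), 175 higher (1.28%) and 80 lower (0.586%). The count fell to 120 without library 35, 113 without 36, 130 without 38 and 106 without 39, so the overlaps below rest on these libraries. It was 194 without library 34 and 292 without 37. Of the genes that rose in H82 KO cells, 443 were tested in H524 and 20 of them (4.51%; 28.2% of 71 lower genes tested in both) were lower with REST, while 5 were higher. Of the genes that fell, 340 were tested, 13 (3.82%; 8.18% of 159 higher genes) were higher and 6 were lower. On the REST target list none of 68 tested members was higher and 14 were lower. *CPLX1* was 8.36, 8.09 and 7.86 without and 7.05, 5.74 and 6.36 with REST induction (-1.72 ± 0.34, adjusted *P* = 0.0164), the opposite direction to its rise in H82 KO cells. *GRIN1* was 6.77, 6.86 and 6.92 and 5.50, 3.84 and 4.40 (-2.27, adjusted *P* = 0.00989), and *CPLX2* 7.72, 7.74 and 7.72 and 7.06, 5.53 and 6.37 (-1.41, adjusted *P* = 0.0342). *SCRT1*, a neuronal repressor gene, rose from 0.85, 0.87 and 1.35 to 2.64, 2.61 and 2.32 in H82 and fell by 1.24 in H524 (adjusted *P* = 0.0223). *CREB5*, a CRE-binding factor gene, rose by 1.47 in H82 and fell by 1.71 in H524 (adjusted *P* = 0.0288), and its difference in H82 came to 0.98 without intact 4. *MVD* and *HES7* had the same pair of directions (-1.52 and -1.18 in H524). In the other direction, *ITGA5* rose by 2.85 with REST induction, *ARHGAP26*, a GTPase-activating protein gene, by 2.47, *EMILIN2*, an extracellular matrix gene, by 1.91, *HOXC10* by 2.20 and *WNT5A* by 1.40. In H82 KO cells *EMILIN2* fell from 8.98, 9.16 and 8.77 to 6.97, 7.12 and 7.11, *ARHGAP26* from 5.05, 3.74 and 3.87 to 1.53, 1.80 and 2.57 and *HOXC10* from 3.99, 5.35 and 5.11 to 1.85, 2.96 and 3.08. The imprinted RNA *H19* also had opposite directions (-2.72 in H82, 2.98 in H524), but its groups in H82 held 1.32, 4.43 and 4.03 and 0.28, 0.82 and 0.54, and it was not called in H82 without intact 5 (-2.13), intact 6 (-2.33), KO 28 (-2.58), KO 29 (-2.85) or KO 30 (-2.71). *NEFL* and *NEFM* were lower with REST induction in H524 (-1.29 and -1.83) and lower in H82 KO cells.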

How the data were processed

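RNA was measured by poly(A) RNA-seq (Illumina Stranded mRNA Prep, paired-end reads). Per the study's methods, the authors trimmed reads with Cutadapt, aligned them with STAR, quantified genes with RSEM on hg19 and normalized with edgeR's TMM, and the deposited values are log2 of RPKM plus 1. No counts were used here, so absolute depth is unknown. The KP1 mouse table was not used.

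A gene entered the test when 3 or more of the 21 H82 libraries reached a log2 value of 1. Testing was done with limma 3.58.1 (trended variance) in R 4.3.3, with all 7 H82 groups in the fit, and *P* was adjusted over all tested genes. H524 was fitted separately. The labels do not say that the 3 libraries of a group came from separate cultures, so *P* measures only the spread between these samples, which may be technical. No pair of libraries held the same values. The members, gene lists and named genes were chosen with earlier results of these data known. Genes were named by rule: the targeted genes, the 12 largest called differences each way with groups that do not overlap and a higher-group mean of at least 2, up to 4 called members of each list each way, up to 10 called each way against all 3 groups, and up to 8 with opposite directions in H524. *MMP24*, *FBLL1*, *KCNK12*, *CHRNB2* and *SYT4* were chosen after their values were seen, for the RE1 pattern. Some genes that the rule names are not reported here. Positions were matched by symbol to the GENCODE annotation lifted to GRCh37 for 12992 tested genes. The RE1 windows of 1000 bases were added after the data were seen, because the RefSeq promoter table (GRCh38.p14) covers fewer genes. Python 3.11.15 and matplotlib 3.10.9 drew the figures.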

Additional observations from a re-analysis of the deposited data

Results flagged for a closer look

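The REST KO difference itself was compared between cells with and without doxycycline by an interaction term in the limma fit. The values below are that term, the KO minus intact difference with doxycycline less the one without it, on the log2(RPKM + 1) scale. It passed the same threshold for 1037 genes in the higher and 759 in the lower direction (12.9% of tested genes in all). A value above 0 says that KO stood higher relative to intact with doxycycline than without it. *NOTCH1* itself was higher in KO than in intact cells with doxycycline (4.69, beside 0.16 without it), and the part of that unequal level in the other terms was not tested. Nor was the part of long culture and of the choice of adherent cells with doxycycline. For neuronal genes that rose without doxycycline the term was 4.97 for *CPLX1*, 5.34 for *CPLX2*, 3.52 for *UNC13A*, 1.90 for *SNAP25*, 1.54 for *SYN1*, 2.71 for *SYT4*, 2.47 for *CHGB*, 4.46 for *PTPRN*, 1.12 for *CACNA1B*, 1.83 for *CHRM4*, 1.40 for *GRIN2D*, 5.21 for *CHRNB2*, 1.52 for *KCNK12*, 2.38 for *SRRM3*, 1.94 for *SCRT1*, 2.95 for *ST8SIA3*, 1.96 for *SPTBN4* and 2.31 for *FAM57B*. For neuronal and neuroendocrine genes that fell it was 3.14 for *NEFL*, 3.92 for *NEFM*, 3.44 for *GABRA5*, 2.19 for *CHRNA3*, 2.55 for *INSM1*, 2.79 for *DCC*, 2.52 for *NSG1* and 2.81 for *UNC5B*. With doxycycline *GABRA5*, *CHRNA3*, *INSM1* and *NSG1* were low in both lines, so little difference was left there. *CHRNA3* was 0.34, 0.33 and 0.30 in intact and 0.03, 0.06 and 0.20 in KO cells. *NSG1* was 0.68, 0.91 and 0.70 in intact and 0.55, 0.63 and 0.62 in KO cells. *NEFL*, *NEFM*, *DCC* and *UNC5B* stood above a log2 value of 1 in every library with doxycycline. Among Notch genes it was 4.53 for *NOTCH1*, 2.25 for *HEY1*, 4.39 for *DTX1*, 2.30 for *DLK1*, -1.15 for *JAG2* and -1.39 for *RFNG*. Among matrix, adhesion and cytoskeletal genes it was 3.75 for *COL3A1*, 4.75 for *COL5A1*, 3.91 for *COL1A1*, 4.00 for *AXL*, 7.79 for *ADAMTS2*, 3.37 for *EMILIN2*, 3.04 for *TES*, -1.46 for *TPM2* and -1.32 for *CTHRC1*. For interferon, antigen presentation and cancer-testis genes it was 2.55 for *HERC5*, 3.19 for *IFITM2*, 2.89 for *LGALS3BP*, 1.54 for *PSMB10*, 5.37 for *PAGE5*, 3.25 for *MAGEA1* and 4.27 for *GAGE12H*. With doxycycline *GAGE12H* was near 0 in both lines, at 0, 0.47 and 0.29 in intact and 0.14, 0.13 and 0.26 in KO cells. For the remaining named genes it was -1.73 for *HMGCS1*, -4.35 for *VEGFC*, 1.81 for *WNT5A*, 3.02 for *NTF3*, 1.65 for *HSPH1*, 2.59 for *HOXC10*, -5.36 for *WIPF3*, -4.64 for *SMYD1*, -2.26 for *OR2A20P*, 1.94 for *DAPK1*, 3.61 for *ABHD17C*, 3.72 for *TUSC1*, 3.88 for *ARHGAP26* and 5.54 for *H19*. The groups of 3 libraries are too small for an outlier test within a group.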

How the results depend on the processing

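The count of 867 called genes between KO and intact cells ranged from 657 to 947 when 1 library was left out, and came to 1311 with a pseudocount of 0.1 and 2119 with no fold limit. Without a fold limit the counts were 5209 against parental, 2411 against STING KO, 5332 with doxycycline and 386 for REST in H524, where comparing only the groups concerned gave 412. The ranges with 1 library left out were 2149 to 2541, 940 to 1185, 1986 to 2731 and 106 to 292 for these 4, and 1482 to 1884 for the interaction. *REST* was not called under any setting. Of 97 called genes named in the text, 60 kept their call in every setting, 37 lost it in at least 1 and 20 lost it without intact 4, and none changed direction. The cause was not tested. No paired analysis was possible because the numbers in the labels are serial library numbers and the groups compared share none.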

Other observations

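Several gene groups not described above held few or no called members between KO and intact H82 cells without doxycycline. The shares over all tested genes were 3.39% higher and 2.85% lower. Of 30 tested cell cycle genes and 29 tested glycolysis genes none was called by limma, with 2 of each at an unadjusted *P* under 0.05. The glycolysis list rested on intact 4: its median difference was 0.15 with all libraries and -0.53 without intact 4. The median over all tested genes was -0.07 and -0.06. None of 16 tested clustered protocadherin genes was called, with 5 at an unadjusted *P* under 0.05. Of 17 tested MYC and cell cycle control genes 1 rose and 1 fell. *CDKN2A*, which encodes cell cycle inhibitors, rose from 3.94, 3.80 and 4.03 to 5.12, 5.17 and 5.04 (1.19, limma adjusted *P* = 0.000312), and STING KO cells were at 4.96, 4.96 and 5.14. *CCND2*, a D-type cyclin gene, fell from 2.70, 3.91 and 4.25 to 2.74, 2.51 and 2.43, with groups that overlapped, and it was not called without intact 5 (-0.92), intact 6 (-0.75), KO 28 (-1.15), KO 29 (-1.03) or KO 30 (-0.99). Of 25 tested stress genes 1 fell, the chaperone gene *HSPH1* (-1.21, adjusted *P* = 0.0178), not called without intact 4 (-0.87) or KO 30 (-1.05). Of 31 tested HOX genes 1 fell, *HOXC10*.

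By chromosome, the median KO minus intact difference was -0.32 on chromosome 15 and -0.26 on chromosome 8, beside -0.07 over all tested genes. On chromosome 8, 29 of 437 tested genes fell (6.64%), and on chromosome 22 the share that rose was 7.12%, beside 2.85% and 3.39% over all tested genes. Other chromosomes came close: 6.15% fell on chromosome 18 and 6.03% on X, and 5.92% rose on chromosome 16. The medians lay further from 0 in the comparisons with the other groups. Against STING KO cells they were 0.66 on chromosome 3, 0.46 on chromosome 2 and -0.39 on chromosome 13, beside 0.02 over all tested genes. Against parental cells they were -0.46 on chromosome 4, -0.42 on chromosome 8 and 0.35 on chromosome 9, beside -0.03. Copy number was not measured in these files.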
